A study of Homo sapiens with 11 samples.

Results

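The genes described here are the 10 that encode the human COPII coat, namely SEC23A, SEC23B, SEC24A, SEC24B, SEC24C, SEC24D, SEC13, SEC31A, SAR1A and SAR1B. They are 10 of 33616 genes that could be read under 1 symbol, and of the 16808 genes with the higher mean levels that were kept for comparison. The set was selected on a measured value, because SEC23B was much lower with siHOXA11 than with siNC, and the question was whether the whole coat or single members were lower. Everything in the comparison of siHOXA11 with siNC is therefore given as a description, without a test.

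COPII is the protein coat that buds vesicles from exit sites of the endoplasmic reticulum and so starts the journey of secreted and membrane proteins to the Golgi. The small GTPase SAR1, when loaded with GTP, inserts into the membrane and recruits the inner coat of SEC23 and SEC24, and the outer cage of SEC13 and SEC31 then assembles over it. Mammals carry paralogues for most of these layers, and inherited loss of SEC23B causes congenital dyserythropoietic anaemia type II in humans. Vesicles that return from the Golgi to the endoplasmic reticulum use a different coat, COPI, built from coatomer.

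The cells were PC3 (PC-3), a human prostate cancer line from a bone metastasis, and every array held whole-culture RNA from this line. Each of 8 arrays held cells transfected with negative control siRNA (siNC) or with siRNA against the transcription factor HOXB13 (siHOXB13), the transcription factor HOXA11 (siHOXA11) or its antisense long noncoding RNA HOXA11-AS (siHOXA11-AS), harvested at 24 h or 48 h. A further 3 arrays, all at 48 h, were titled shNC, shIBSP(1) and shIBSP(2), after the gene of integrin-binding sialoprotein, and their labels leave unsettled whether they carried shRNA or siRNA. Each condition was measured on 1 Clariom D array, and a value or difference taken from such arrays carries no replicate error.

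The siHOXA11 treatment combined 2 target sequences, shown here because the lower coat values below were measured with this agent. HOXA11 lies on chromosome 7 (chr7:27181157-27185232 in GRCh38.p14), next to HOXA11-AS (chr7:27185408-27189293). Both sequences are printed 5′ to 3′ as the study's siRNA list gives them.
siHOXA11 (1): aagataaatattatattatatat
siHOXA11 (2): ttcaaaaaacttgtaaataaagg
Of the 23 bases, 22 were A or T in the first and 18 in the second. The level of HOXA11 was not analysed here, since no probe set carried its symbol alone, so the extent of its knockdown was not checked.

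Some facts on the arrays bear on the coat values. The siHOXA11 48 h array stood apart from the other 10, with a median root-mean-square distance of 0.82 log2 units to the others against 0.57 to 0.71 for the rest. Its median log2 intensity over the kept genes was the lowest, 7.19 against 7.24 to 7.58. Over all probe sets its median linear intensity was the highest, 19.2 against 17.4 to 18.2. The part these medians have in the coat values was not tested. HOXB13 had a log2 intensity of 8.09 with siHOXB13 against 10.10 with siNC at 24 h. At 48 h it went against the labels, with 10.36 on the array labelled siHOXB13 and 8.52 on that labelled siNC, so these names are used below as labels only. Of the markers used to check the line, KRT8 and EPCAM lay at or above 15.35 on all arrays, while the prostate gene KLK3 and the leukocyte gene PTPRC lay between 5.57 and 7.09, against array medians of 3.26 to 3.32 for background probe sets. The keratin gene KRT18 had a median of 15.06 and its lowest value, 12.91, with siHOXA11 at 48 h, a difference of −2.14 from siNC whose relation to the coat values was not tested.

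The inner coat subunit SEC23B is the GTPase activator that, with a bound SEC24, forms the layer next to the membrane. At 24 h its log2 intensity was 11.95 with siNC, 12.25 with siHOXB13, 11.19 with siHOXA11 and 12.14 with siHOXA11-AS. At 48 h it was 11.87 with siNC, 11.63 with siHOXB13, 8.60 with siHOXA11 and 12.04 with siHOXA11-AS. The sh arrays gave 11.96 with shNC, 12.28 with shIBSP(1) and 11.96 with shIBSP(2). The 10 arrays other than siHOXA11 at 48 h thus lay within 1.09 log2 units of each other, and the siHOXA11 48 h array lay 2.59 below the lowest of them. That lowest of the others was the siHOXA11 array of 24 h. In the order of the levels, no 2 neighbours among those 10 were more than 0.44 apart. The residual SD of SEC23B in a fit of treatment and time to the 8 siRNA arrays was 0.84, and it includes the disagreement between the siHOXA11 arrays themselves.

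SEC23B was 9.61-fold lower with siHOXA11 than with siNC at 48 h, a log2 difference of −3.27 that ranked 10 from the lowest of 16808 genes. At 24 h the difference was −0.76, rank 445 from the lowest. The arrays measured RNA from whole cultures on a relative scale, so less SEC23B mRNA in every cell and loss of it from a share of the cells cannot be told apart.

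The paralogue SEC23A can take the same place in the coat. Its log2 intensity at 24 h was 11.04 with siNC, 11.60 with siHOXB13, 11.29 with siHOXA11 and 10.64 with siHOXA11-AS. At 48 h the values were 11.95 with siNC, 11.18 with siHOXB13, 9.86 with siHOXA11 and 10.38 with siHOXA11-AS. The sh arrays read 11.97 with shNC, 11.86 with shIBSP(1) and 11.24 with shIBSP(2). SEC23A spread more than SEC23B over the 10 arrays other than siHOXA11 at 48 h, by 1.58 against 1.09 log2 units. Its lowest arrays were siHOXA11 and siHOXA11-AS at 48 h, 0.52 apart, beside a residual SD of 0.67. As for SEC23B, that SD includes the disagreement between the siHOXA11 arrays themselves. The siNC array of 48 h was 0.91 above that of 24 h, so the size of the 48 h differences depends on which control is taken.

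With siHOXA11 at 48 h SEC23A was 4.24-fold lower than siNC, a difference of −2.08, whereas at 24 h the difference was 0.24. Both SEC23 paralogues were therefore at their lowest on the same array. With siHOXA11-AS the difference of SEC23A was −1.57 at 48 h and −0.41 at 24 h, while SEC23B had 0.17 and 0.19.

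**Figure D1:**
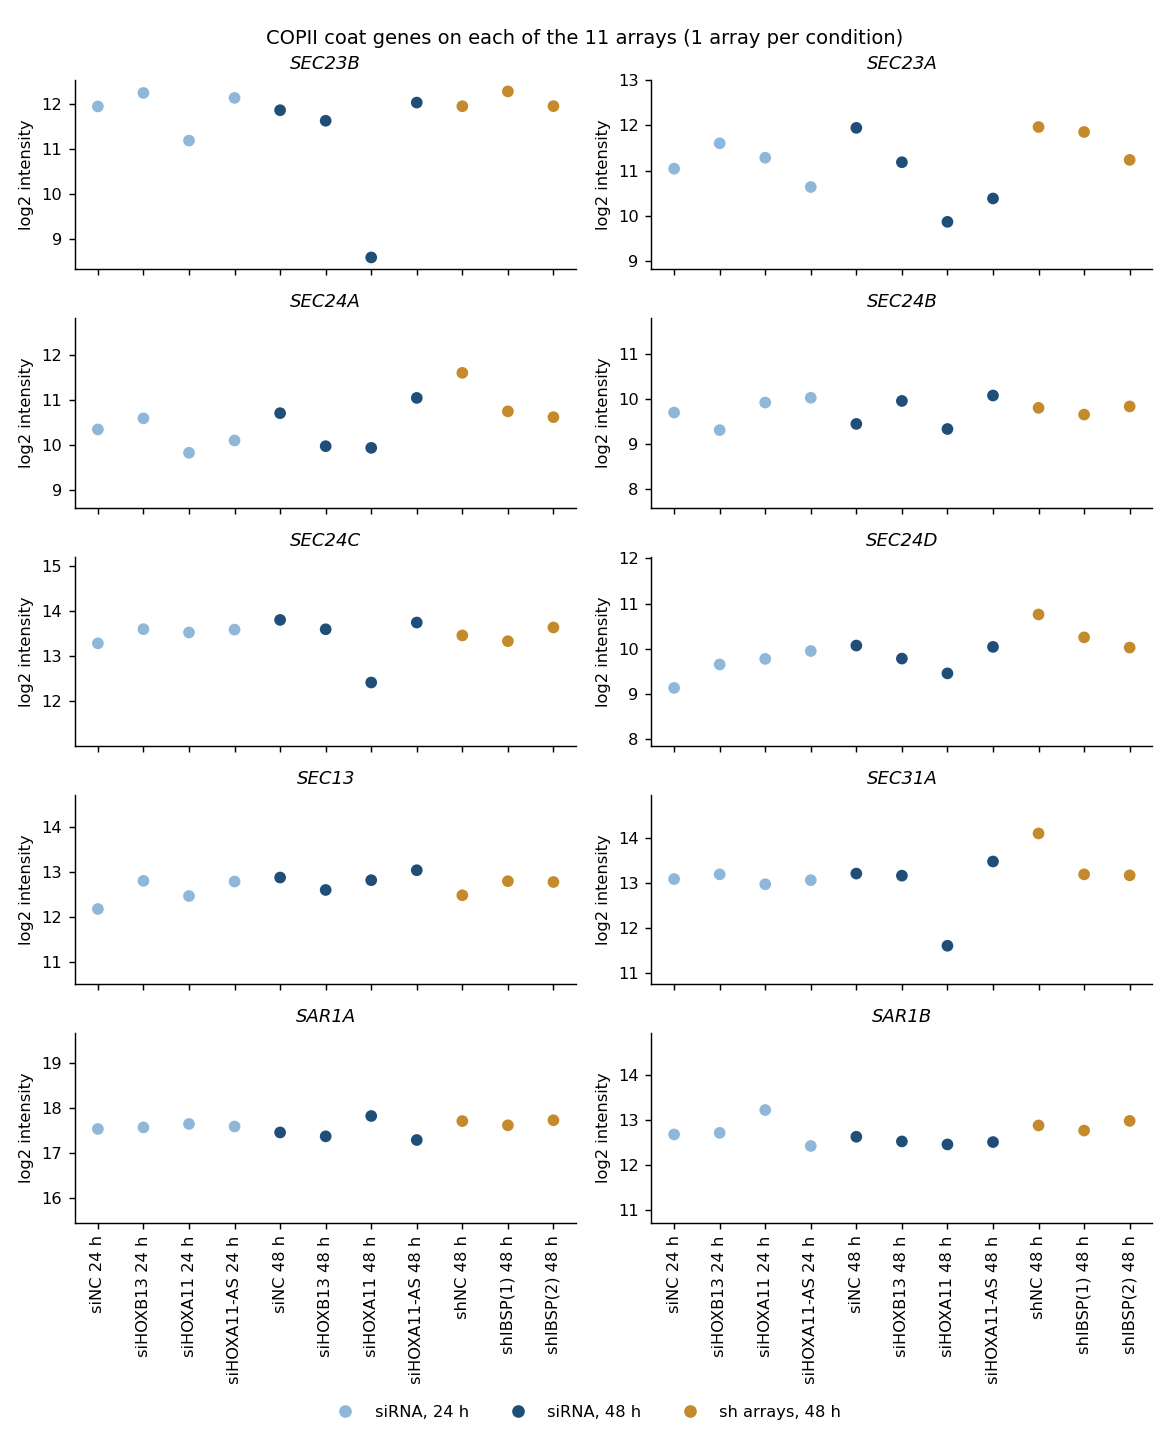
Log2 intensity (vertical axis) of each COPII gene on each of the 11 arrays (horizontal axis), with 1 point per array; light blue marks siRNA arrays of 24 h, dark blue those of 48 h and ochre the sh arrays. Every panel spans the same number of log2 units, and SEC23B, SEC23A, SEC24C and SEC31A have their lowest point on the siHOXA11 48 h array, at 8.60, 9.86, 12.42 and 11.61.

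The SEC24 proteins bind export signals of cargo and so decide what a COPII vesicle carries. In mammals SEC24A and SEC24B form one closely related pair and SEC24C and SEC24D the other. SEC24A had 10.35 with siNC, 10.59 with siHOXB13, 9.83 with siHOXA11 and 10.10 with siHOXA11-AS at 24 h. Its 48 h values were 10.71 with siNC, 9.98 with siHOXB13, 9.94 with siHOXA11 and 11.05 with siHOXA11-AS. The sh arrays of SEC24A gave 11.60 with shNC, 10.75 with shIBSP(1) and 10.62 with shIBSP(2). Both siHOXA11 arrays were the lowest for SEC24A, but the siHOXB13 array of 48 h lay within 0.04 of the later one.

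SEC24B, the paralogue of SEC24A, varied little. At 24 h it had 9.69 with siNC, 9.30 with siHOXB13, 9.92 with siHOXA11 and 10.02 with siHOXA11-AS. At 48 h SEC24B had 9.44 with siNC, 9.95 with siHOXB13, 9.33 with siHOXA11 and 10.07 with siHOXA11-AS. The values with shNC, shIBSP(1) and shIBSP(2) were 9.80, 9.65 and 9.83. Its 11 arrays spanned 0.77 log2 units, and the siHOXA11 48 h array was not the lowest of them.

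SEC24C showed the clearest difference of the SEC24 genes. At 24 h its log2 intensity was 13.29 with siNC, 13.60 with siHOXB13, 13.53 with siHOXA11 and 13.59 with siHOXA11-AS. At 48 h it had 13.81 with siNC, 13.60 with siHOXB13, 12.42 with siHOXA11 and 13.75 with siHOXA11-AS. The sh arrays had 13.46 with shNC, 13.34 with shIBSP(1) and 13.64 with shIBSP(2). Its 10 other arrays lay within 0.52 log2 units, the narrowest span of the 4 lower members, and the siHOXA11 48 h array lay 0.87 below them.

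SEC24D, its nearest relative, did not stand out on that array. Its values at 24 h were 9.13 with siNC, 9.65 with siHOXB13, 9.77 with siHOXA11 and 9.95 with siHOXA11-AS. At 48 h SEC24D read 10.07 with siNC, 9.78 with siHOXB13, 9.45 with siHOXA11 and 10.04 with siHOXA11-AS. With shNC, shIBSP(1) and shIBSP(2) it had 10.76, 10.25 and 10.02. The lowest array of SEC24D was siNC at 24 h, so its difference with siHOXA11 was −0.62 at 48 h and 0.64 at 24 h.

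Of the outer cage, SEC31A makes up the rods and stimulates the GTPase cycle, and SEC13 is its beta-propeller partner, which also serves in the nuclear pore. SEC31A had 13.09 with siNC, 13.19 with siHOXB13, 12.97 with siHOXA11 and 13.06 with siHOXA11-AS at 24 h. At 48 h it read 13.21 with siNC, 13.16 with siHOXB13, 11.61 with siHOXA11 and 13.48 with siHOXA11-AS. The sh arrays of SEC31A gave 14.10 with shNC, 13.19 with shIBSP(1) and 13.17 with shIBSP(2). The siHOXA11 48 h array was 1.36 below the next lowest, and the shNC array was above all others.

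SEC13 behaved differently from its partner. At 24 h it had 12.18 with siNC, 12.81 with siHOXB13, 12.47 with siHOXA11 and 12.79 with siHOXA11-AS. At 48 h SEC13 had 12.88 with siNC, 12.61 with siHOXB13, 12.82 with siHOXA11 and 13.04 with siHOXA11-AS. The values with shNC, shIBSP(1) and shIBSP(2) were 12.49, 12.80 and 12.78. The lowest array was siNC at 24 h, and the siHOXA11 48 h array lay 0.04 above the median of the other 10. The difference of the cage partners with siHOXA11 at 48 h was −1.60 for SEC31A and −0.06 for SEC13.

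The 2 SAR1 GTPases start coat assembly, and loss of SAR1B causes chylomicron retention disease in humans. SAR1A had 17.53 with siNC, 17.56 with siHOXB13, 17.64 with siHOXA11 and 17.58 with siHOXA11-AS at 24 h. At 48 h SAR1A had 17.45 with siNC, 17.36 with siHOXB13, 17.82 with siHOXA11 and 17.28 with siHOXA11-AS. Its sh arrays read 17.70 with shNC, 17.61 with shIBSP(1) and 17.72 with shIBSP(2). SAR1A was thus at its highest on the array on which SEC23B was at its lowest, although all 11 arrays lay within 0.53 log2 units.

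SAR1B was read from the brighter of 2 probe sets, since the other lay between 3.70 and 5.28. It had 12.68 with siNC, 12.71 with siHOXB13, 13.22 with siHOXA11 and 12.42 with siHOXA11-AS at 24 h. At 48 h SAR1B had 12.63 with siNC, 12.52 with siHOXB13, 12.46 with siHOXA11 and 12.51 with siHOXA11-AS. The sh arrays gave 12.88 with shNC, 12.76 with shIBSP(1) and 12.98 with shIBSP(2). Its highest array was siHOXA11 at 24 h, and the siRNA arrays of 48 h lay within 0.17 log2 units of one another.

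Set side by side, the coat was not lower as a whole with siHOXA11 at 48 h. Of the 10 genes, 4 were at least 2-fold lower than siNC, namely SEC23B, SEC23A, SEC31A (3.03-fold) and SEC24C (2.62-fold), and 0 were at least 2-fold higher. The next were SEC24A with −0.77 and SEC24D with −0.62, and SAR1B (−0.17), SEC24B (−0.11), SEC13 (−0.06) and SAR1A (0.37) were within 0.4 log2 units of siNC. Among all 16808 genes, 13.2% were at least 2-fold lower and 3.9% at least 2-fold higher in this comparison. The median difference was −0.69 over the 10 coat genes, −0.62 over the 9 without SEC23B and −0.14 over all genes. Of the 10 coat genes, 9 had a difference below 0, where 58.9% of all genes and 70.7% of those in the coat's range of levels did. With quantile normalization 6 of the 10 did, beside 53.9% of all genes, and with centring of the arrays 6 of the 10, beside 45.9%. Against the siNC array of 24 h the lower genes numbered 3, with SEC23A at −1.18 and SEC24C at −0.87, where 9.73% of all genes were lower. The coat's median was then −0.39, beside −0.006 over all genes. With quantile normalization the count was 4, beside 10.3% of all genes, and the median −0.35, beside −0.06 over all genes.

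The share of lower genes on this array was higher among genes with high intensities, where all the coat genes lie. It was 3.43% of genes with a mean log2 intensity under 6, 9.75% from 6 to 8, 19.9% from 8 to 10, 25.7% from 10 to 12, 24.0% from 12 to 14 and 19.4% from 14 upwards. Among the 4226 genes in the level range of the coat genes, 24.4% were at least 2-fold lower and the median difference was −0.43. The part that level has in the coat values was not tested. Against this level-matched share the 4 of 10 are 40%, a count that includes SEC23B, whose value selected the set. Without SEC23B, 3 of 9 genes were lower, or 33.3%, and a count of so few genes is too small to read more from it.

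**Figure D2:**
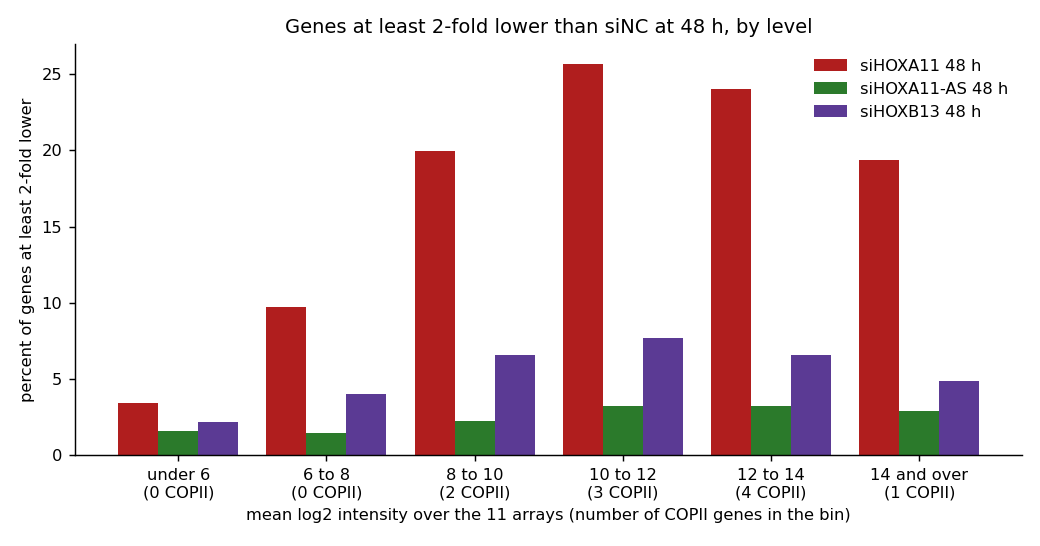
Percent of genes at least 2-fold lower than siNC at 48 h (vertical axis) by mean log2 intensity over the 11 arrays (horizontal axis), for 3 siRNAs shown as bars from 0. The siHOXA11 bars rise from 3.43% in the dimmest bin to 25.7% at 10 to 12, and the bins from 8 upwards hold all 10 COPII genes.

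At 24 h of siHOXA11 none of the 10 genes was 2-fold lower or higher, where 0.976% of all genes were 2-fold lower and 3.69% higher. SEC23B (−0.76) and SEC24A (−0.52) had the lowest differences and SEC24D (0.64) and SAR1B (0.54) the highest. The median over the coat was 0.23, beside 0.16 over all genes. The difference of SEC23B minus the median difference of the other 9 members was −1.0 at 24 h and −2.65 at 48 h. SEC23B was the lowest member at both times, while SEC23A, SEC24C and SEC31A were within 0.25 log2 units of siNC at 24 h.

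**Figure D3:**
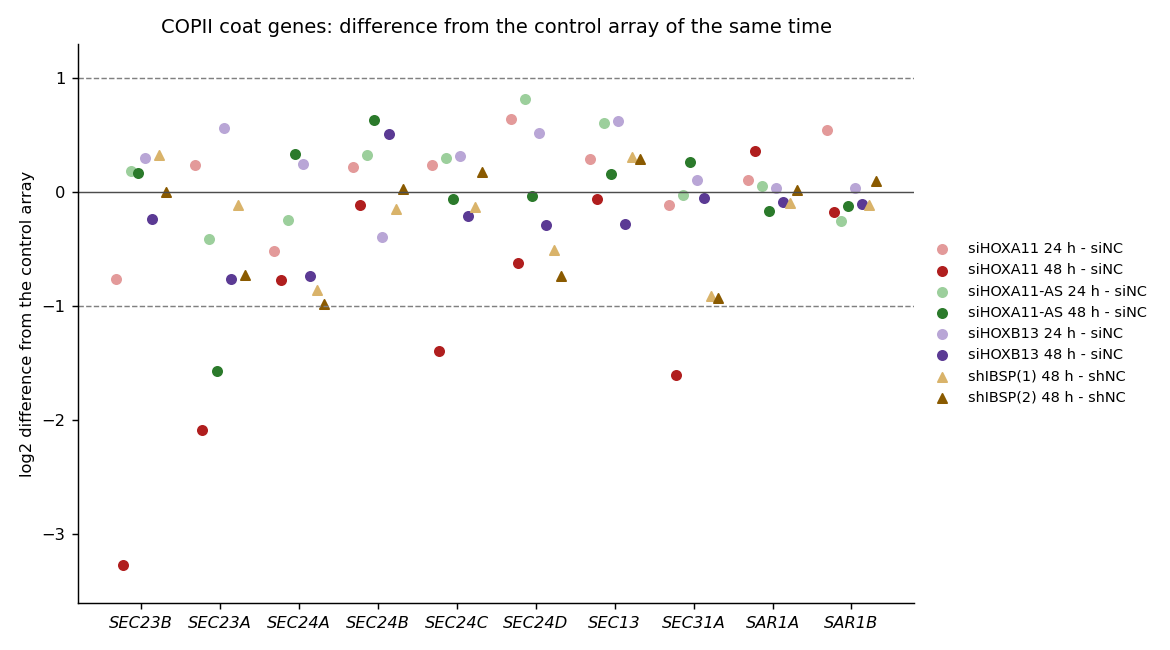
Log2 difference (vertical axis) of each COPII gene (horizontal axis) between each array and the control array of its time, siNC for the circles and shNC for the triangles; dashed lines mark a 2-fold difference. Below the lower line lie SEC23B, SEC23A, SEC31A and SEC24C with siHOXA11 at 48 h and SEC23A with siHOXA11-AS at 48 h.

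With the other siRNAs the coat showed few large differences. With siHOXA11-AS, 1 of the 10 genes was 2-fold lower at 48 h, SEC23A with −1.57, where 2.05% of all genes were 2-fold lower and 3.68% higher. This rests on the siNC array of 48 h, since SEC23A had −0.66 against the siNC array of 24 h and −0.80 against the array labelled siHOXB13 48 h or the median of the other siRNA arrays of 48 h. At 24 h of siHOXA11-AS none was, where 1.8% of genes were lower and 3.86% higher, and SEC24D had the highest difference with 0.82. With siHOXB13 no member reached 2-fold in either direction, where 1.09% of genes were lower and 4.58% higher at 24 h, and 4.62% lower and 5.22% higher on the array so labelled at 48 h. For siHOXB13, the difference of SEC23A was 0.56 at 24 h and −0.76 at 48 h. All these differences share the siNC array of their time with the siHOXA11 comparison.

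Differences common to both times were tested with limma on the 8 siRNA arrays, with Benjamini-Hochberg adjustment over all 16808 genes. For siHOXA11-AS against siNC, 0 of the 10 coat genes and 0% of all genes had an adjusted p under 0.05, and at an unadjusted p under 0.05 the counts were 0 of 10 and 4% of all genes. SEC23A had the largest fitted difference, −0.99 (95% interval −2.11 to 0.13, limma adjusted p = 1.00), and SEC23B had 0.18 (−1.13 to 1.49). The unadjusted count for siHOXA11-AS was 1 of 10 with quantile normalization or centring, beside 3.87% and 4.27% of all genes. The spread in these fits includes the disagreement between the siHOXA11 arrays of 24 h and 48 h. For siHOXB13 against siNC, 0 of 10 members and 0% of genes passed after adjustment, with 0 of 10 and 1.01% before it. The largest fitted difference of siHOXB13 in the coat was −0.24 for SEC24A (95% interval −1.14 to 0.66). It averages 0.25 at 24 h and −0.73 at 48 h, where HOXB13 went against the labels. For SEC23A, 0.56 at 24 h and −0.76 at 48 h gave a fitted −0.10. Exchanging the 48 h labels reverses the sign of the 48 h differences, so these fitted values depend on the labels. The 95% interval included a 2-fold change for 7 of 10 members with siHOXA11-AS and for 4 of 10 with siHOXB13. With the labels siNC and siHOXB13 of 48 h exchanged, 0 of 10 coat genes passed before or after adjustment for either siRNA, where 16 of all genes passed after and 13.1% before it for siHOXA11-AS, and 2 and 11.7% for siHOXB13.

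The comparison of 48 h with 24 h over the 4 siRNA treatments includes the siHOXA11 arrays, whose values selected the set, so SEC23B is given here as a description, with a fitted difference of −0.85. The other 9 members had fitted differences between −0.30 (SEC23A) and 0.27 (SEC13). After adjustment 0 of these 9 coat genes and 0% of all genes passed in this limma fit, and before it 0 of 9 and 7.02%. Its spread also includes the disagreement between the siHOXA11 arrays. Without the siHOXA11 48 h array, the difference of SEC23B was −0.27 (SE 0.24, limma adjusted p = 0.89) and SEC24D had the largest in the coat, 0.39 (SE 0.27, limma adjusted p = 0.87).

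The sh arrays gave comparisons that used none of the siRNA arrays as controls. SEC31A had −0.91 with shIBSP(1) and −0.93 with shIBSP(2), SEC24A −0.85 and −0.98, and SEC24D −0.51 and −0.73. SEC23A had −0.11 and −0.73, and SEC23B had 0.33 and 0.00. None of the 10 members was 2-fold lower or higher, where 1.6% of genes were lower and 0.506% higher with shIBSP(1), and 4.87% lower and 0.988% higher with shIBSP(2). In a limma fit of all 11 arrays the mean of both against shNC was −0.92 for SEC24A (SE 0.44) and −0.92 for SEC31A (SE 0.49), each with an adjusted p of 1.00. Of the members, 0 of 10 passed after and 0 of 10 before adjustment, where 0% and 2.54% of all genes did. The single shNC array held the highest value of SEC23A, SEC24A, SEC24D and SEC31A among the 11, so these differences rest on that 1 array. The spread in the fit of all 11 arrays includes the disagreement between the siHOXA11 arrays. The unadjusted count of members was not 0 in every alternative fit.

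The paralogue pairs can be compared as differences within the same comparison. With siHOXA11 at 48 h, SEC23B was 1.18 lower in its difference than SEC23A, and SEC24C 0.77 lower than SEC24D. SEC24A was 0.66 lower than SEC24B, and SAR1B 0.54 lower than SAR1A. SEC31A was 1.54 lower than its partner SEC13. Both genes were at least 2-fold lower in the SEC23 pair and in no other of these pairs.

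The genes around the coat were also examined, from a list of 37 genes of the early secretory pathway, of which 36 were kept. With siHOXA11 at 48 h, 14 of the 36 were at least 2-fold lower and 0 at least 2-fold higher, with a median of −0.52. That is 38.9% of the list, where 13.2% of all genes and 24.4% of those in the coat's level range were lower. Some listed genes, PEF1 and KLHL12 among them, lie below that range, so the 24.4% is not matched to their levels. The lower count was 9 with quantile normalization (10.3% of all genes), 8 against the array labelled siHOXB13 48 h (14.3%) and 5, or 13.9% of the list, against the siNC array of 24 h (9.73%). Cargo receptors made up 7 of them, out of 14 kept, with a median of −1.0. Named by size, the lowest were MCFD2 with −2.54, LMAN2 with −1.85, MIA2 with −1.54 and PEF1 with −1.52. PEF1 was dim, with a median log2 intensity of 5.25 and a lowest of 3.81, where array medians of background probe sets were 3.26 to 3.32. MCFD2 is the partner of the lectin LMAN1 in the export of coagulation factors, and LMAN1 itself had −0.98. LMAN2 is a further cargo lectin, MIA2 a cargo receptor of exit sites for large cargo, and PEF1 a calcium-binding adaptor of the ubiquitin ligase that modifies SEC31.

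Other 2-fold lower members of that list were the cargo receptors SURF4 (−1.47), TMED10 (−1.38), ERGIC3 (−1.27), TMED9 (−1.25) and BCAP31 (−1.02). KLHL12, the substrate adaptor that brings SEC31 to its ligase, had −1.44 at a median level of 6.21. In tethering and fusion, 4 of 13 kept genes were 2-fold lower, TRAPPC3 (−1.47), BET1 (−1.39), GOLGA2 (−1.06) and GOSR2 (−1.0). The scaffold SEC16A, on which exit sites assemble, had 0.12 at a dim median level of 4.97, and TFG, which organizes exit sites, had 0.11. At 24 h these 14 genes had differences between −0.35 (MIA2) and 0.39 (GOSR2).

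The COPI coat gave a higher share than COPII on the same array. Of 10 listed genes, 7 were kept and 5 of them were at least 2-fold lower with siHOXA11 at 48 h, with a median of −1.43. The coatomer subunits were COPB2 (−2.10), COPA (−1.55), COPG1 (−1.55), ARCN1 (−1.43) and COPZ1 (−1.36). COPB1 had −0.33 and COPE 0.24. At 24 h all 7 lay between −0.01 and 0.37, so the lower values were seen at 48 h alone with siHOXA11. These lists share the siHOXA11 48 h array with COPII, and their shares stand beside the 24.4% of genes in the coat's level range.

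**Figure D4:**
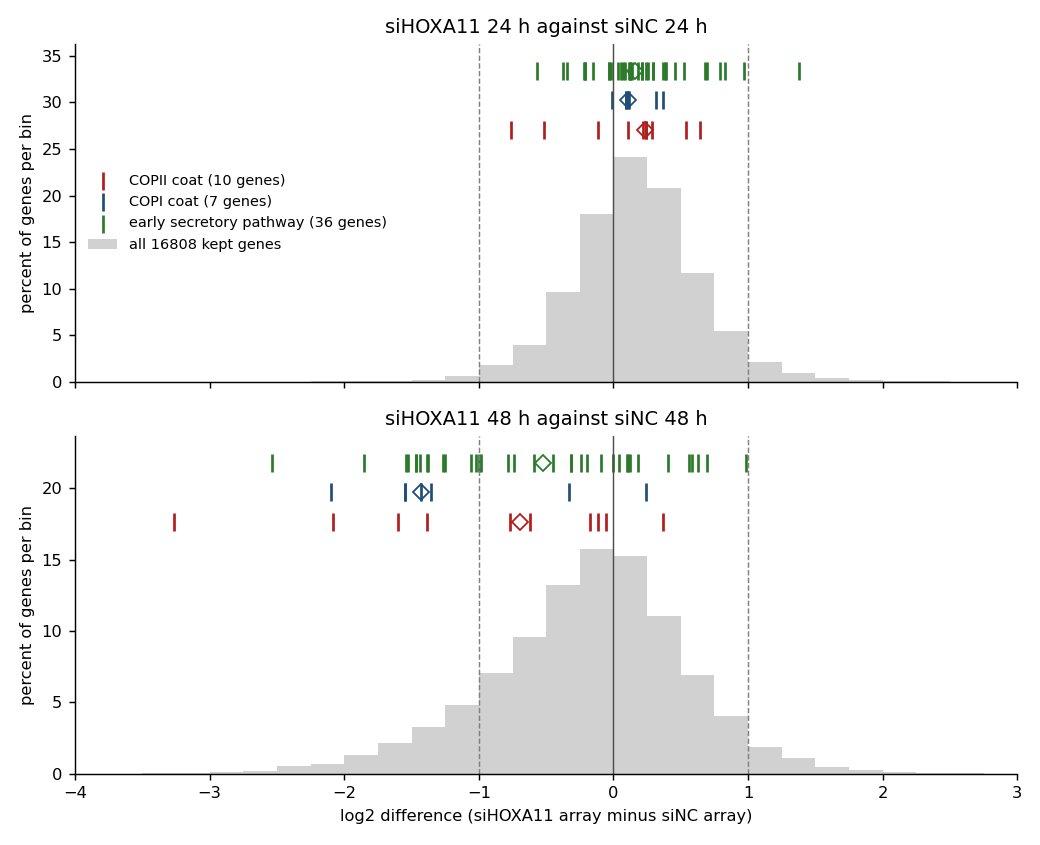
Log2 difference of the siHOXA11 array from the siNC array (horizontal axis) at 24 h (upper panel) and 48 h (lower panel), with grey bars for the percent of all genes per bin of 0.25 log2 units and a tick per gene of each list; diamonds mark list medians and dashed lines a 2-fold difference. At 48 h the medians are −0.69 for COPII, −1.43 for COPI and −0.52 for the early secretory pathway, beside −0.14 for all genes.

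Across the 11 arrays, the members that followed SEC23B most closely were SEC24C, with a Pearson r of 0.86, SEC31A with 0.85 and SEC23A with 0.63. Without the siHOXA11 48 h array the same correlations were −0.10, 0.21 and 0.05 over 10 arrays. The likeness of these genes to SEC23B thus rested on that 1 array. Over all 45 pairs of members the median r was 0.28 on 11 arrays and 0.06 without that array, and all points share the arrays and their scaling.

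Among all genes, the 5 closest to SEC23B over the 11 arrays were AASDHPPT (r 0.97), ZNF644 (0.97), CAB39 (0.96), TOX4 (0.96) and BACE1-AS (0.96), and the most opposite were LOC100131289 (−0.96) and PANTR1 (−0.96). Differences of the 5 closest with siHOXA11 at 48 h were −2.68 for AASDHPPT, −1.55 for ZNF644, −3.16 for CAB39, −3.01 for TOX4 and −1.58 for BACE1-AS. The r that picked these genes includes the siHOXA11 48 h array, so low values there follow largely from the selection. BACE1-AS overlaps BACE1 on the other strand. Without the siHOXA11 48 h array, the closest were ABITRAM (0.91), ITGA2 (0.89), DAAM1 (0.88), C6orf118 (0.88) and SLC25A40 (0.88), and the most opposite FAM95B1 (−0.92) and MIR3945 (−0.92). None of the 7 genes of the first selection was in the second, which took only the 5 highest and 2 lowest of 16807 genes. Without that array their r was 0.73 for AASDHPPT, 0.63 for ZNF644, 0.57 for CAB39, 0.49 for TOX4 and 0.87 for BACE1-AS. It was −0.61 for LOC100131289 and −0.79 for PANTR1.

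The promoters of the 4 lower members are shown because these genes were low on the same array. RefSeq sequences of GRCh38.p14, from 250 bases before to 50 after the most upstream start listed, were found for 9 of the 10 members, all but SEC24D. They are printed 5′ to 3′ on the gene's strand in lower case. Capitals mark every match on either strand to CCAAT, the box bound by NF-Y, to CCACG, the second part of the endoplasmic reticulum stress response element, or to TGACGT, the core shared by sites of CREB, ATF and XBP1 proteins. TGACGT and CCACG matches overlap where the letters read TGACGTGG.
SEC23B (chr20:18507298-18507597, plus strand): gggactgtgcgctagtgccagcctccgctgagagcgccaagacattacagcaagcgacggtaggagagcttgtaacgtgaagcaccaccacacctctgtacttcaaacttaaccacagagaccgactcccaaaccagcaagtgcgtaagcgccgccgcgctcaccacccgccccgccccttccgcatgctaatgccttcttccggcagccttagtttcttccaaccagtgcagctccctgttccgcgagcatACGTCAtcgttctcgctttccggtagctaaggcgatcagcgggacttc
SEC23A (chr14:39103186-39103485, minus strand): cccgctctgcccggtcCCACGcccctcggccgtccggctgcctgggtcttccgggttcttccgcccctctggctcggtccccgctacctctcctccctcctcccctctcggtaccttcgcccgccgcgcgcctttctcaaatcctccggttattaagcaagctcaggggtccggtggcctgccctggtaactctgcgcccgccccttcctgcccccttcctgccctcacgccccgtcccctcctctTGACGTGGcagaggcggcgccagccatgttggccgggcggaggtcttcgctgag
SEC24C (chr10:73744122-73744421, plus strand): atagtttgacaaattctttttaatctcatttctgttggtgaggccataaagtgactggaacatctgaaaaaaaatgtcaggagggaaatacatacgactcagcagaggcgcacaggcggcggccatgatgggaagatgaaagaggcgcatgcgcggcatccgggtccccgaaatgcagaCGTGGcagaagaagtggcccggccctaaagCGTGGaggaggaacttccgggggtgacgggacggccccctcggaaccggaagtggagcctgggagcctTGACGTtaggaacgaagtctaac
SEC31A (chr4:82900520-82900819, minus strand): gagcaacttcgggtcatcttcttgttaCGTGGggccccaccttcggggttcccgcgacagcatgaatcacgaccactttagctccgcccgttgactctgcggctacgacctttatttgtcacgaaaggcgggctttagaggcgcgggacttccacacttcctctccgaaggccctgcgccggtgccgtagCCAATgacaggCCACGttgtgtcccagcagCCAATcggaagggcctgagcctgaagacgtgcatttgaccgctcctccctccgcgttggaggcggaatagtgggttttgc

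No motif separated these 4 from the other members. TGACGT was found in 6 of the 9 promoters, against 8.32% of all promoters in the table, and these were SEC23A, SEC23B and SEC24C but also SEC24A, SEC13 and SAR1A. The longer TGACGTGG, the unfolded protein response element, was found in SEC23A and SEC24A and in 0.806% of all promoters. CCACG was found in 8 of 9, all but SEC23B, and in 37.8% of all promoters. CCAAT was found in SEC31A and SAR1B and in 35.7% of all promoters. CAATAAA, letters that HOXB13 prefers, and GTCGTAAA, a site of the posterior HOX proteins, were in none of the 9, and in 4.12% and 0.179% of all promoters. These matches describe letters in a window of 300 bases and say nothing on whether a factor binds there.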

How the data were processed

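PC3 cells were measured on 11 Clariom D arrays, 1 per condition, grouped by the sample labels. The submitters' processing notes name Affymetrix Expression Console. The deposited values were probe set intensities, linear and not log2 as first assumed, and for their summary, scaling and annotation build the entry is "not given in the sources used here". Log2 was taken without further normalization. Of 138745 probe sets, 36176 carried 1 gene symbol, and each gene was read from its probe set with the highest mean. The brighter 16808 of 33616 genes were kept.

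Single-time differences have no test. Differences over both times went through limma 3.58.1 under R 4.3.3 (treatment plus time, 8 siRNA arrays, 3 residual degrees of freedom, Benjamini-Hochberg at 0.05), and shIBSP on all 11 arrays (4 residual degrees of freedom). The residual is the disagreement of a treatment between its times, or of the shIBSP arrays, so p-values measure only that spread, which may be technical. The number of arrays limits the precision.

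The members and gene lists were chosen with earlier results of these data known. Named were all members, listed genes at least 2-fold different with siHOXA11 at 48 h (the 4 largest first), and the 5 genes most like and 2 most opposite to SEC23B. COPB1, COPE, LMAN1, SEC16A, TFG and the line markers were named besides, after their values were seen. COPG2 and ARF1 had no probe set under their symbol alone and were not analysed here. Alternatives covered the filter, quantile normalization, centring, mean of probe sets, control arrays and the arrays and variance trend of the fits. The level range and the control labelled siHOXB13 were chosen after seeing the data.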

Additional observations from a re-analysis of the deposited data

Results flagged for a closer look

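With siHOXA11, SEC23A and SEC24C had differences from siNC in opposite directions at the 2 times. SEC23A had 0.24 at 24 h and −2.08 at 48 h, and SEC24C had 0.24 at 24 h and −1.39 at 48 h. With 1 array per condition the difference between the times was not tested, and the 24 h values are smaller than the residual SDs of 0.67 and 0.50. Those SDs include the disagreement between these same siHOXA11 arrays.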

How the results depend on the processing

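The count of 4 lower members with siHOXA11 at 48 h was 4 under all settings tried except with the siNC array of 24 h as control, where it was 3, without SEC24C at −0.87 and with SEC23A at −1.18. Over these settings the share of all genes at least 2-fold lower ran from 7.2% (all named genes kept) to 14.3% (array labelled siHOXB13 48 h as control). With the median of the other 3 siRNA arrays, or with the array labelled siHOXB13 48 h, SEC23A had −1.32. The coat's median ranged from −0.35 (quantile normalization) to −0.70, and SEC23B minus the median of the other members from −2.98 to −2.64. SEC13 turned to 0.31 with quantile normalization, 0.64 with the siNC array of 24 h and 0.22 with the array labelled siHOXB13, and SAR1B to 0.23 with quantile normalization and 0.47 with the mean of its probe sets. SEC24B turned to 0.19 with quantile normalization, SEC24D to 0.32 with the siNC array of 24 h, and SEC13, SAR1B and SEC24B also lay above 0 with centring. The lower COPI count of 5 was 4 with quantile normalization and with the other controls, and the early secretory count of 14 fell to 11 with centring, 9 with quantile normalization and 5 with the siNC array of 24 h. With siHOXA11-AS at 48 h, the lower count of 1 became 0 with any of these 3 other controls, and the higher count of 0 became 1 (SEC24A) with the median of the other arrays or the array labelled siHOXB13. The cause was not tested.

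In limma, 0 members passed after adjustment in all contrasts under all alternatives, leave-one-out fits included, whose lowest and highest counts were both 0. In the comparison of the times SEC23B is a description only. Before adjustment, some alternatives gave members with a p under 0.05 for siHOXA11-AS and for shIBSP. Over all genes, exchanging the 48 h labels of siNC and siHOXB13 gave 16 calls for siHOXA11-AS, 2 for siHOXB13 and 5 between the times, where none was called as labelled. No paired analysis was possible because the labels give no replicate numbers, and the time term already matches each siRNA with siNC within its time.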
